A study of Mus musculus with 8 samples.

Results

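Bone-marrow macrophages were compared with wild-type microglia in 5 of the 8 libraries of a mouse RNA sequencing study. The 5 libraries were taken by their labels: 3 of bone-marrow macrophages and 2 of wild-type microglia, with 3 libraries of repopulating microglia left out of the test. By its title, the series asks how interleukin-1 signalling bears on the way microglia renew and persist. Bone-marrow macrophages carry the strain label DTRmg, as do the repopulating microglia, and wild-type microglia the strain label DTR, so strain and cell population cannot be told apart. The genotype field repeats the name of the population, and the labels name neither the alleles behind these strain names nor an age, sex or pooling of animals. One protocol text is given for every sample, wild type included. It has tamoxifen, 2 mg at a time, injected subcutaneously at postnatal days 12 and 14, and 500 ng diphtheria toxin injected into the abdomen 3 times to deplete microglia. That text describes brains digested with papain, cells enriched on a Percoll density gradient, and sorting by flow cytometry. Titles of the bone-marrow macrophage samples read bm_micro, and the labels do not say whether those cells were taken from brain or from marrow, or how long after depletion.

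Microglia, the macrophages that reside in the brain, descend from yolk sac progenitors. Macrophages derived from bone marrow descend from haematopoietic stem cells by way of blood monocytes, and can settle in the brain once resident microglia have been removed. Both kinds depend on the colony-stimulating factor receptor Csf1r, while the zinc finger factor Sall1 and signalling by transforming growth factor beta maintain the expression programme that is particular to microglia.

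Values are normalised counts, that is, reads per gene that the authors divided by a scale factor for each library. The 5 libraries held 6853696 to 12476427 reads in genes. Of 23413 genes in the table, 11190 had at least 10 normalised counts in at least 2 of the 5 libraries and were tested with limma on log2(normalised count + 1). Changes are given as log2 fold changes of bone-marrow macrophages over wild-type microglia with a standard error (SE). The added count of 1 makes them understate changes of genes with few reads. A gene was called where the Benjamini-Hochberg adjusted p was below 0.05, and "rose" and "fell" are used for called genes alone, with wild-type microglia as the reference. Means are followed by SD, with n = 3 bone-marrow macrophage and n = 2 wild-type libraries. The labels do not say that replicates came from separate animals, so p-values measure the spread between these libraries. Replicate 1 of bone-marrow macrophages differed from replicates 2 and 3 in sex-linked transcripts, given below, and so did not come from the same animals. Between the other libraries of a group the spread may be technical. For a single gene, an exact two-sided permutation test of 3 against 2 libraries cannot go below p = 0.2, so calls rest on the model across genes.

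Between any bone-marrow macrophage and any wild-type library, log2 differences over tested genes had an SD of 1.36 to 1.41, against 0.355 to 0.402 among bone-marrow macrophage libraries and 0.446 between the wild-type libraries. Of the tested genes 7118 were called (63.6%), 3655 higher (32.7%) and 3463 lower (30.9%). Of these, 1728 were at least 2-fold higher (15.4% of tested genes) and 1550 at least 2-fold lower (13.9%). At least 4-fold higher were 626 (5.59%) and at least 4-fold lower 610 (5.45%). At 16-fold and more, 70 genes were higher (0.626%) and 157 lower (1.4%). Values of the groups did not overlap for 8522 genes (76.2%). Because most genes were called, the share of a gene list that was called is read below against these percentages. A list called in both directions at shares near 32.7% and 30.9% is not set apart from all tested genes. Scaling libraries to equal totals moved the median log2 fold change of all tested genes from 0.0043 to 0.1457, and the calls to 4281 higher and 2822 lower. With the spread estimated over all 8 libraries, 4944 genes were called.

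**Figure D1:**
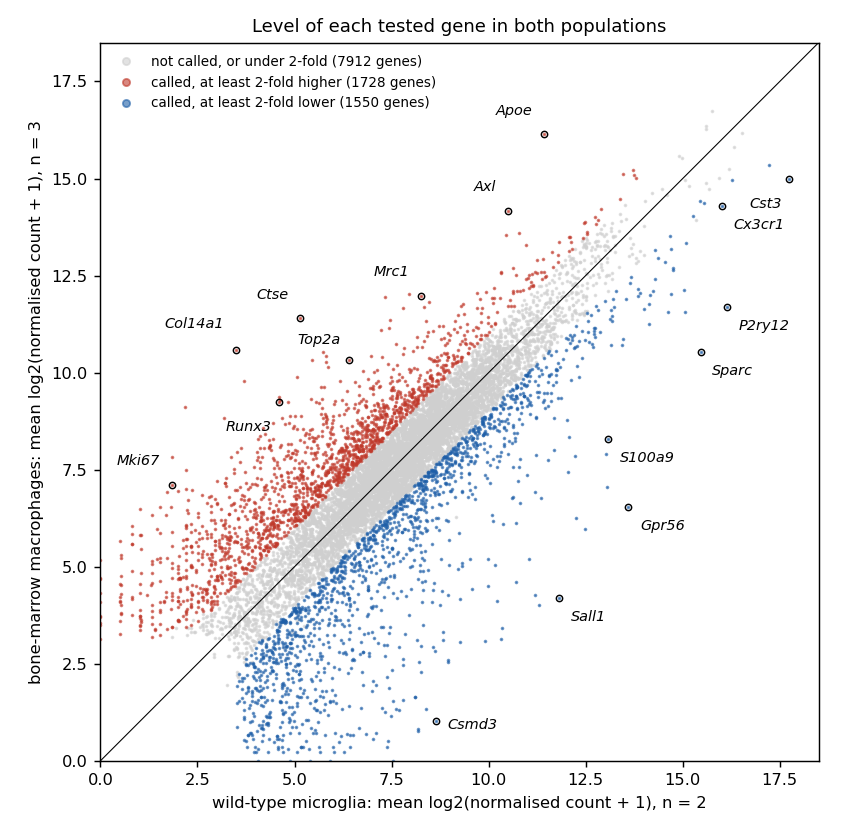
Mean log2(normalised count + 1) of each of the 11190 tested genes in wild-type microglia (horizontal, n = 2) and bone-marrow macrophages (vertical, n = 3), with the line of equal levels. Red points are the 1728 genes called at least 2-fold higher and blue points the 1550 called at least 2-fold lower. Genes that sit far below the line at high microglial levels include Gpr56, Sall1 and Csmd3.

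One bone-marrow macrophage library stood apart in sex-linked transcripts. Replicate 1 had 799 normalised counts over 4 genes of the Y chromosome (Ddx3y, Eif2s3y, Kdm5d, Uty), summed. Replicate 2 had 1.06, and replicate 3 and both wild-type libraries had 0. Xist, the transcript that silences an X chromosome in females, stood at 0.568, 567 and 538 in the bone-marrow macrophage libraries and at 532 and 604 in the wild-type ones. Without this library 6224 genes were called in place of 7118. Over the fits that left out 1 library, this one among them, 45 to 46 of the 50 microglial signature genes below fell, 58 of 62 replication and mitosis genes rose and 25 of 26 neutrophil markers fell.

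Both populations carried transcripts that define macrophages. Csf1r had 36903, 39376 and 40126 normalised counts in bone-marrow macrophages and 71104 and 79568 in microglia. The lysozyme gene Lyz2 had 30463, 41286 and 35068 against 11926 and 10778. Of 15 tested pan-macrophage genes 3 rose and 8 fell, with a median log2 fold change of -0.52, or -0.32 with quantile normalisation, and 5 rose with equal totals. Csf1r fell by 0.96 on the log2 scale (SE 0.13, adjusted p = 5.7e-05), and Itgam, which encodes Cd11b, a chain of a complement receptor, fell by 0.96 (SE 0.11, adjusted p = 1.2e-05). Lyz2 rose by 1.64 (SE 0.14, adjusted p = 1.2e-06). All 5 libraries thus held these macrophage transcripts, while marrow as the source of 3 of them rests on the label.

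Genes of the microglial signature were lower in bone-marrow macrophages nearly throughout. Of 50 listed genes, all tested, 46 fell, 41 of them at least 2-fold, and 2 rose, against 30.9% of all tested genes that fell and 32.7% that rose. The median log2 fold change was -2.37, against 0.0043 over all tested genes. Reads of the list made up 2.44 to 2.61% of the bone-marrow macrophage libraries and 11.2 and 11.3% of the wild-type ones. In bulk libraries, fewer cells of a type and less RNA per cell cannot be told apart.

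The depth of the fall differed widely from gene to gene. Sall1 (chromosome 8, 89027235 to 89044162, minus strand, GRCm38) had 35.8, 9.55 and 15.0 normalised counts in the bone-marrow macrophage libraries and 3179.8 and 4056 in the wild-type libraries. It fell by 7.61 on the log2 scale (SE 0.38, adjusted p = 1.6e-08), and its mean in bone-marrow macrophages was 0.556% of that in microglia. Its relative Sall3 had 5.11, 4.24 and 2.65 against 289.6 and 318. The adhesion receptor gene Gpr56, now named Adgrg1, had 85.2, 97.6 and 92.6 against 12076 and 12718, which is 0.741% of the microglial mean. Serpine2, a secreted inhibitor of serine proteases, stood at 1.09%, the fructose transporter Slc2a5 at 1.56% and the uroplakin Upk1b at 0.609%. The groups did not overlap for any of these 6 genes, as for 76.2% of all tested genes. For Sall1, Gpr56, Serpine2 and Upk1b, which are among the 15 most lowered genes below, this was a condition of the choice.

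P2ry12, the receptor with which microglial processes sense ADP, had 2959.6, 4044 and 3020.2 normalised counts in bone-marrow macrophages and 75179.5 and 68682 in microglia, and fell by 4.44 (SE 0.14, adjusted p = 5.2e-10). Its neighbour on chromosome 3, P2ry13, fell by 3.06 (SE 0.13) from 25291 ± 3722 to 3035 ± 358. Bone-marrow macrophages thus kept these receptors at 4.65% and 12.0% of the microglial means. Other signature genes fell less. Tmem119, a membrane protein used to label microglia, had 10110.2, 9461 and 11341 against 33850.0 and 36041, and the lectin Siglech 1624, 1728 and 1781 against 6418 and 6570.2. The fractalkine receptor Cx3cr1 is on the pan-macrophage list and not on the signature list. It had 19847, 21977 and 18454 against 63892 and 68599 and fell by 1.72 (SE 0.13, limma adjusted p = 3.6e-07). At 29.5%, 26.3% and 30.3% of the wild-type mean, these 3 transcripts separated the groups far less than Sall1 did. In repopulating microglia, which share the strain label of the bone-marrow macrophages, Cx3cr1 had 22578, 19166 and 23758. There, Tmem119 had 26586, 19383 and 29806 and Siglech 6458, 6453 and 8544. Strain and population cannot be told apart.

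The signature genes called higher, 1 with all 8 libraries or without replicate 1 of wild-type microglia, included Pmepa1, a feedback inhibitor of transforming growth factor beta signalling. Pmepa1 had 5286, 6039 and 5517 normalised counts in bone-marrow macrophages and 2795 and 2805 in microglia, and it rose (SE of the log2 fold change 0.10, adjusted p = 4.7e-06).

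The 15 most lowered genes, taken among called genes with non-overlapping groups and a mean of at least 100 in the higher group, reached beyond the signature list. The lowest was a gene of that list, Csmd3, a large membrane protein with sushi domains. It had 0.568, 4.24 and 0 normalised counts in bone-marrow macrophages and 408 and 387 in microglia. The genes that follow are not on the list. Eva1a, a regulator of autophagy, had no read in any bone-marrow macrophage library and 203 and 167 in microglia, which makes it at least 235.9-fold lower when 3 reads over the group serve as the floor. The ion channel relative Tmc7 had 3 reads in all bone-marrow macrophage libraries together and the kinase gene Yes1 had 2. Scaled by library, their ratios between groups were 370.5 (95% interval 126.1 to 1802) and 323.8 (88.92 to 2685), and these intervals cover counting error only. Adamts1, a secreted metalloproteinase, had 1.70, 2.12 and 2.65 against 227 and 337, and the transcription factor Ebf3 1.70, 2.12 and 0.882 against 322 and 352. Wild-type libraries disagreed on 2 of the 15. The glutamate transporter Slc1a3 had 987 and 6365 and the eosinophil granule protein gene Prg2 669.9 and 126. In bone-marrow macrophages Slc1a3 had 17.0, 14.8 and 14.1 and Prg2 1.70, 1.06 and 0. Groups without overlap were a condition for the 15, so that both stood above these libraries was fixed by the choice.

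**Figure D2:**
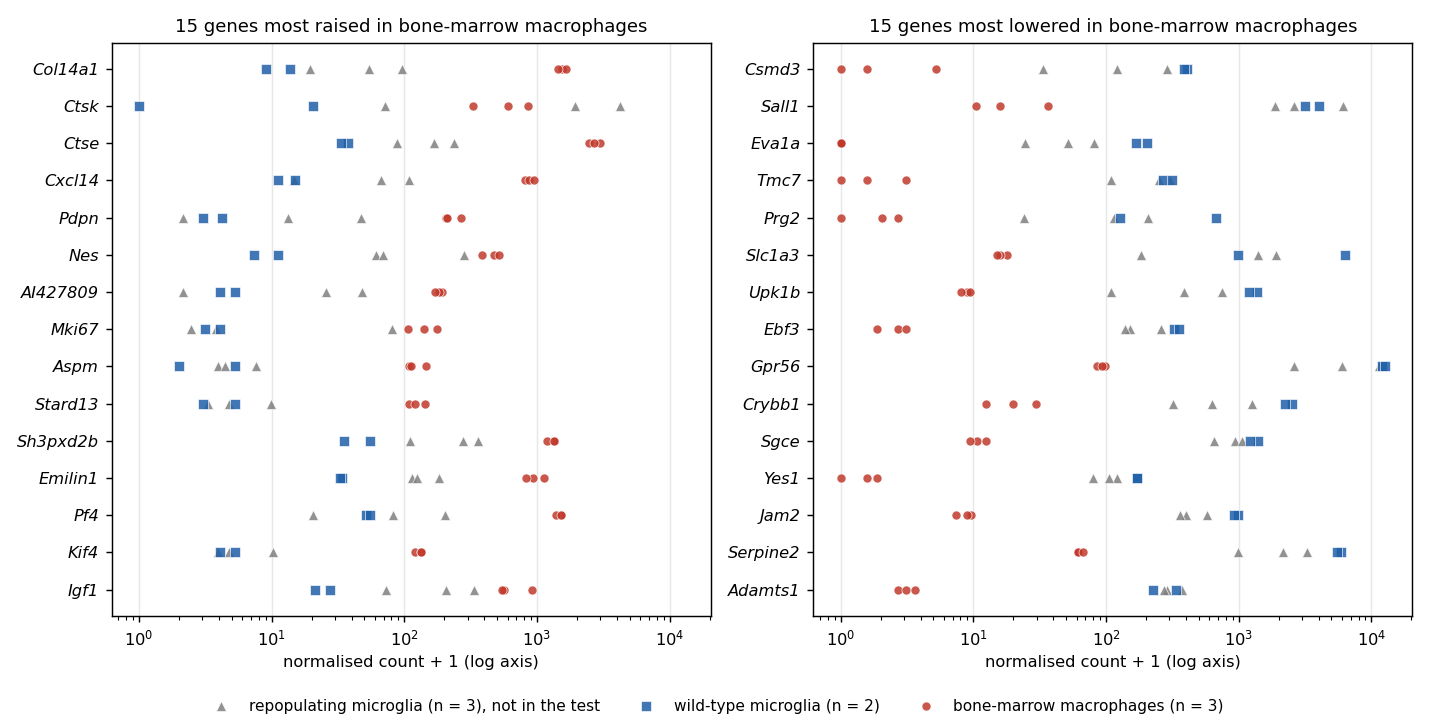
Normalised count + 1 on a log axis in every library for the 15 genes with the highest and the 15 with the lowest log2 fold change. Red circles are bone-marrow macrophages, blue squares wild-type microglia and grey triangles repopulating microglia, which took no part in the test. Sall1 stands at 35.8, 9.55 and 15.0 normalised counts in red and at 3179.8 and 4056 in blue.

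Among genes that were most raised, Col14a1, a collagen of the fibril-associated class (chromosome 15, 55307750 to 55520803, plus strand), had 1546, 1653 and 1437 normalised counts in bone-marrow macrophages and 12.8 and 8.13 in microglia. It rose by 7.10 (SE 0.17, adjusted p = 7.1e-11). The aspartic protease Ctse had 2444, 2961 and 2709 against 36.3 and 32.5, and Ctsk, the collagen-degrading cathepsin of osteoclasts, 326, 857 and 601 against 0 and 19.3. The chemokine Cxcl14 had 810.4, 869 and 954 against 13.9 and 10.2. Podoplanin, encoded by Pdpn, and the intermediate filament nestin, encoded by Nes, had 267, 206 and 207 and 473, 387 and 516, against 3.21 and 2.03 and 6.41 and 10.2 in the same order. In microglia, the means of Col14a1, Ctse, Cxcl14 and Pdpn were 0.678%, 1.27%, 1.37% and 1.16% of those in bone-marrow macrophages. The matrix protein Emilin1, the podosome adaptor Sh3pxd2b and the growth factor Igf1 were also among the 15, at 960.3 ± 151, 1290.4 ± 83.4 and 679 ± 212 against 32.3 ± 1.13, 44.0 ± 13.9 and 23.4 ± 4.34.

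Genes known from bone-marrow-derived macrophages that settle in the brain rose more often than they fell. Of 37 tested, 22 rose, 16 of them at least 2-fold, and 9 fell, with a median log2 fold change of 0.74. With all 8 libraries in the fit 14 rose. The transcription factor Runx3 had 602, 508 and 742 normalised counts in bone-marrow macrophages and 23.5 and 23.4 in microglia, and rose by 4.64 (SE 0.17, adjusted p = 1.8e-09). Ms4a7, a tetraspan membrane protein, had 1255, 1693 and 1209 against 107 and 146 and the inhibitory lectin Clec12a 2653, 2843 and 2233 against 357 and 308. Axl, a receptor tyrosine kinase that binds dying cells through Gas6, had 17666, 18984 and 18800.1 against 1416 and 1479 and rose by 3.67 (SE 0.10, adjusted p = 1.4e-10). For these 4 genes every bone-marrow macrophage library stood above both wild-type libraries. Groups did not overlap, in either direction, for 76.2% of all tested genes. The integrin chain Itga4, the NADPH oxidase subunit Cybb and the matrix protein Tgfbi rose by 3.15, 2.81 and 3.10.

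Not all genes used to mark such cells moved that way. Ccr2, the receptor that draws monocytes out of marrow, had 1386, 1195 and 917 against 911 and 949, with overlapping groups and no call (log2 fold change 0.31, SE 0.15, adjusted p = 0.092), although it was called with libraries scaled to equal totals (adjusted p = 0.022), with quantile normalisation (0.045), with the replicate number as a block (0.0066) and without replicate 3 of bone-marrow macrophages (0.0071). Mrc2, a collagen receptor, had 25.0, 23.3 and 22.9 against 344 and 309 and fell by 3.72. The lectins Clec4a1 and Clec4a3 fell by 2.24 and 2.43. Apobec3, a cytidine deaminase that restricts retroviruses, rose by 0.76 (SE 0.15), a call lost with all 8 libraries (adjusted p = 0.065).

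Markers of the macrophages of brain borders (meninges and perivascular space) rose more often than they fell. Of 22 tested, 13 rose and 5 fell, with a median of 1.68, or 0.22 without the filter on low values, which adds members. The 5 that fell became 3 without replicate 1 of bone-marrow macrophages, without replicate 2 of wild-type microglia, with all 8 libraries, with equal totals or with no variance trend, and 2 when a gene had to reach 50 normalised counts in 2 libraries, below called a minimum of 50. The mannose receptor Mrc1 had 3645, 4909 and 3706 against 231 and 408 and rose by 3.72 (SE 0.20, adjusted p = 3.0e-08). Pf4, a chemokine, had 1517, 1390.4 and 1527 against 50.2 and 53.9, and Siglec1, a sialic acid receptor that binds other cells, 2099.8, 2309.9 and 2449 against 144 and 208. The scavenger receptor Stab1 and the copper-carrying ferroxidase ceruloplasmin, encoded by Cp, rose by 2.33 and 4.44. Timd4, a receptor for phosphatidylserine on long-lived tissue macrophages, went the other way, with no read in bone-marrow macrophages and 31.0 and 26.4 in microglia (at least 36.65-fold lower). The haemoglobin scavenger receptor Cd163 was low in both, at 21.2 ± 4.10 and 44.3 ± 26.4, and its call was lost in 9 of the 20 alternatives that tested it, among them leaving out any 1 bone-marrow macrophage library (adjusted p = 0.069 to 0.12) or replicate 2 of wild-type microglia (adjusted p = 0.53).

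**Figure D3:**
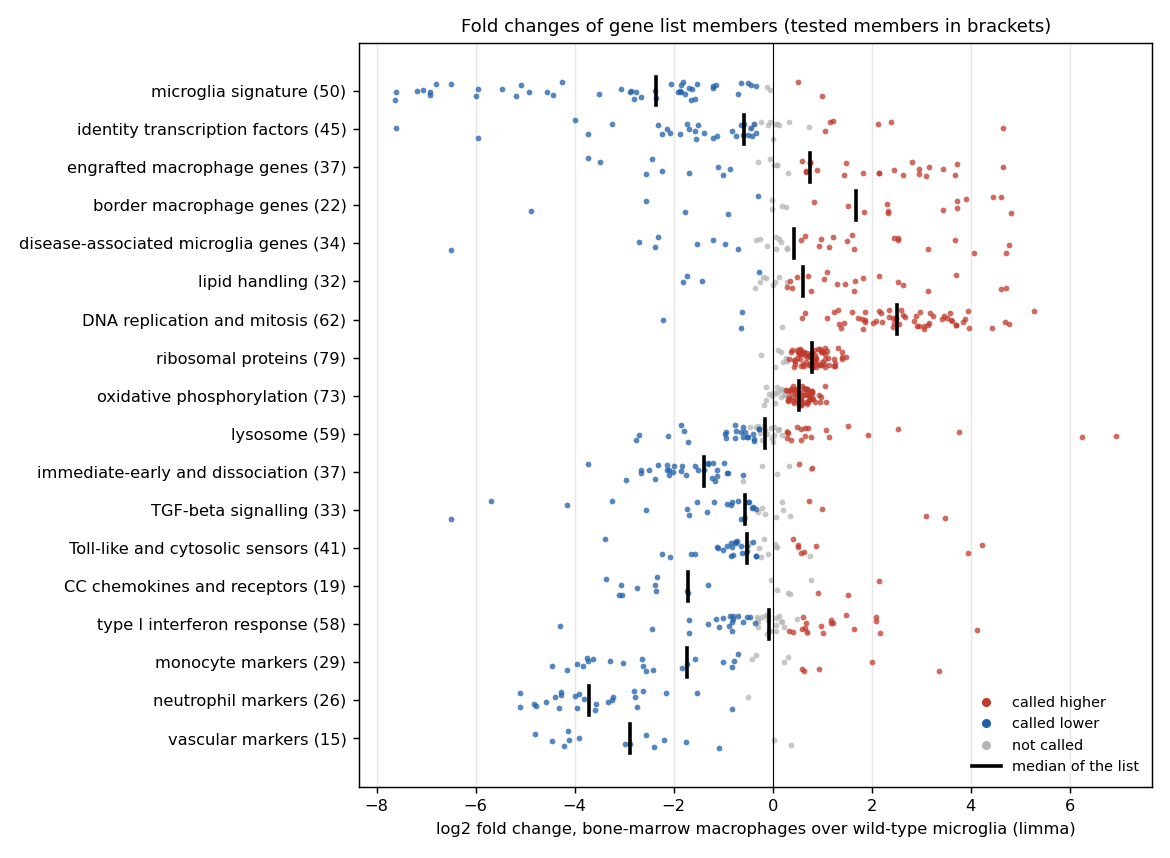
Log2 fold change of each tested member of 18 gene lists, one dot per gene, with the median of the list as a black bar. Red dots were called higher in bone-marrow macrophages, blue dots lower, and grey dots were not called. The microglia signature has its median at -2.37, neutrophil markers at -3.71, and DNA replication and mitosis at 2.52.

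Genes that carry, take up or export lipid rose more often than they fell. Of 32 tested, 20 rose, 14 of them at least 2-fold, and 4 fell. With all 8 libraries 13 rose. Apoe, the main lipid carrier made by brain macrophages, had 53078, 87433 and 80796 normalised counts in bone-marrow macrophages and 2214 and 3410.2 in microglia, and rose by 4.71 (SE 0.22, adjusted p = 9.1e-09). The fatty acid and lipoprotein receptor Cd36 had 4240.5, 4239 and 3446 against 208 and 124. The scavenger receptor Msr1, the lipoprotein lipase Lpl and the cholesterol hydroxylase Ch25h rose by 2.64, 2.54 and 3.14. Mylip, which marks the lipoprotein receptor for degradation, and the transporter Abca9 fell by 1.73 and 1.81. Genes that make sterols and fatty acids did not move together: of 30, 6 rose and 8 fell, with 3 that rose in the fit of all 8 libraries. The fatty acid enzymes Acaca and Fasn rose by 2.17 and 2.04, while the sterol enzymes Dhcr7, Ebp and Sc4mol, now named Msmo1, fell by 0.65, 0.63 and 1.41.

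Several lipid genes also belong to the set that microglia switch on around plaques and dying neurons, the disease-associated genes. Of 34 tested, 17 rose and 8 fell, with a median of 0.43, or 0.67 without replicate 1 of wild-type microglia. Beside Apoe, Axl and Lpl, the secreted phosphoprotein osteopontin, encoded by Spp1, had 3705, 4826 and 4069.5 against 306 and 201, and Igf1 had 567, 923 and 546 against 20.3 and 26.4. The list did not rise as a whole. Trem2, the lipid receptor on which the disease-associated state depends, had 5157, 5778 and 6047 against 14325 and 11896 and fell by 1.21 (SE 0.12, adjusted p = 3.8e-06). The tetraspanin Cd9 and the protease cathepsin L, encoded by Ctsl, fell by 1.53 and 2.70. Galectin 3, encoded by Lgals3, rose by 0.97 (adjusted p = 4.6e-05, and 0.078 with all 8 libraries).

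Genes of DNA replication and mitosis rose almost without exception. Of 62 tested, 58 rose, 56 of them at least 2-fold, and 3 fell, with a median log2 fold change of 2.52, and the count that rose stayed between 56 and 59 over the alternatives run. Top2a, the topoisomerase that untangles replicated chromosomes, had 1368, 1160.3 and 1356 normalised counts in bone-marrow macrophages and 93.0 and 74.2 in microglia, and rose by 3.94 (SE 0.13, adjusted p = 8.9e-10). The proliferation antigen Mki67 had 139.8, 105 and 176 against 2.14 and 3.05, and rose by 5.28 (SE 0.29). The replicative helicase subunit Mcm6 had 1576, 1385 and 1534 against 301 and 236, the mitotic cyclin Ccnb2 684, 479 and 659 against 52.4 and 39.7, and the DNA ligase Lig1 572, 525 and 655 against 75.9 and 83.4. The groups did not overlap for any of these 5 genes, as for 76.2% of all tested genes. For Mki67, one of the 15 most raised genes, this was a condition of the choice. Ccnd3, a cyclin of the first growth phase, fell by 0.63. Cdkn1b and Cdkn1c, both inhibitors of cyclin-dependent kinases, fell by 0.64 and 2.21. The whole list summed to 0.367 to 0.449% of reads in bone-marrow macrophages and 0.109 and 0.119% in wild-type microglia.

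Many cell cycle promoters carry the letters CCAAT, the box bound by the factor NF-Y. The 250 bases before the annotated start of Top2a and Mki67 hold the box repeatedly. Windows were picked from cycle genes that rose by their number of matches, then by log2 fold change. Repeated boxes in the windows shown thus follow from the choice. The window of another cycle gene, Ube2c, also held 6 matches and is not shown. The sequences are from RefSeq, build GRCm38.p6, read 5′ to 3′ on the strand of the gene, with CCAAT or its reverse complement ATTGG in capitals. The Top2a window is chr11:99024190-99024439 on the minus strand, and the Mki67 window chr7:135716380-135716629 on the minus strand.
Top2a: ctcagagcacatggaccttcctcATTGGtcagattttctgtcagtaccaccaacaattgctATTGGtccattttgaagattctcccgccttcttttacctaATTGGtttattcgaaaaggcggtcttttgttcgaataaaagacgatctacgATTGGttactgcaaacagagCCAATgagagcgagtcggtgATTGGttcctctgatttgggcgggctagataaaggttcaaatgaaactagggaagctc
Mki67: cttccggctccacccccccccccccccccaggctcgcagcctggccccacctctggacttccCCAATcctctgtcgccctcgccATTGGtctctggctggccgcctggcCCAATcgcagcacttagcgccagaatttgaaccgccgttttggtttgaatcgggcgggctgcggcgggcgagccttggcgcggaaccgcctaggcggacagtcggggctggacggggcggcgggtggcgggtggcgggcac
The Top2a window holds 6 matches and the Mki67 window 3. Windows of this length exist for 49 of the cycle genes, some with more than 1 start, and 33 of their 58 windows hold at least 1 match on either strand (56.9%), against 33.8% of all 32851 windows and 35.4% of those of tested genes. A match describes the letters in these windows and not binding of a factor.

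Most ribosomal protein and respiratory chain genes rose. Of 79 ribosomal protein genes tested, 72 rose, 18 of them at least 2-fold, and none fell (limma, 0 lower also at an unadjusted p under 0.05 and with edgeR and DESeq2), with a median log2 fold change of 0.78, and 46 rose with all 8 libraries. Their reads made up 9.45 to 9.91% of bone-marrow macrophage libraries and 5.51 and 4.79% of wild-type ones. Rpl10a, a protein of the large subunit, had 9091, 8768 and 8561 against 3615 and 2793. Of 73 subunits of oxidative phosphorylation, 55 rose and none fell (limma, 0 lower by the same other counts), with a median of 0.53, 2 of them at least 2-fold, and 26 with all 8 libraries. Cox5a and Cox7b of cytochrome c oxidase were the 2 that reached 2-fold, at 1.05 and 1.08. In glycolysis 16 of 35 rose and 12 fell, or 7 with all 8 libraries. Gapdh rose by 1.17 (SE 0.13) and Gpi1 by 1.41, while Ldhb, the lactate dehydrogenase chain of oxidative tissue, had 339, 525 and 469 against 4088 and 4245 and fell by 3.25 (SE 0.16, adjusted p = 1.3e-08).

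Immediate-early genes, which cells switch on within minutes of stimulation or of dissociation, were lower in bone-marrow macrophages. Of 37 tested genes of this kind, with heat shock genes among them, 30 fell, 26 of them at least 2-fold, and 2 rose, with a median of -1.39. The 2 that rose became 4 without replicate 1 of bone-marrow macrophages or with equal totals, and 1 with all 8 libraries. Dusp1, a phosphatase that shuts off stress kinases, had 3377, 4332 and 4785 against 15246 and 21783 and fell by 2.14 (SE 0.17, adjusted p = 6.0e-07). Klf2, a transcription factor of quiescent leukocytes, had 248, 389 and 347 against 3196 and 5710.1, and the antiproliferative gene Btg2 1255, 1849 and 1857 against 5728 and 7504. The genes that rose were the chaperones Hspa8 (0.79, adjusted p = 3.2e-04, and 0.061 with all 8 libraries) and Hsp90aa1 (0.53, adjusted p = 0.0028). Summed reads of the list were 0.813 to 1.09% in bone-marrow macrophages and 1.72 and 2.50% in microglia, so the wild-type libraries also differed from each other. Its part in other results was not tested.

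Transcripts of other blood and brain cells lay mostly on the microglial side. Of 26 tested neutrophil markers, 25 fell and none rose (limma, 0 higher also at an unadjusted p under 0.05 and with edgeR and DESeq2), with a median of -3.71, or -2.40 with a pseudocount of 10. S100a9, a calcium-binding protein of neutrophils, had 411, 213 and 348 against 9115 and 8226 and fell by 4.79 (SE 0.21, adjusted p = 6.7e-09). The granule genes Ngp, Camp and Lcn2 fell by 4.39, 4.58 and 4.27. All 31 listed markers in the table made up 0.0331 to 0.0360% of reads in bone-marrow macrophages and 0.411 and 0.419% in microglia. Vascular markers made up 0.00448 to 0.00484% and 0.0203 and 0.0348%. Of 15 tested, 13 fell and none rose by the same counts, and 3 were called lower with a minimum of 50. Most vascular reads came from Eng, also on the list of transforming growth factor beta genes, with 190, 224 and 214 against 1000 and 1516. The endothelial junction gene Pecam1 had 10.8, 9.55 and 10.6 against 276 and 362 and the tight junction gene Cldn5 6.82, 2.12 and 3.53 against 54.5 and 123. Of 12 astrocyte markers 7 fell and none rose by the same counts, and 4 fell without replicate 2 of wild-type microglia and 3 with all 8 libraries or a minimum of 50. Their reads were 0.0626 to 0.0696% and 0.178 and 0.303%. Most of these reads came from the glutamine synthetase gene Glul, which had 4249, 4803 and 4671 against 13197 and 16614 and was called lower, and in microglia Slc1a3 added those given above. The part of these cells in the comparison was not tested.

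**Figure D4:**
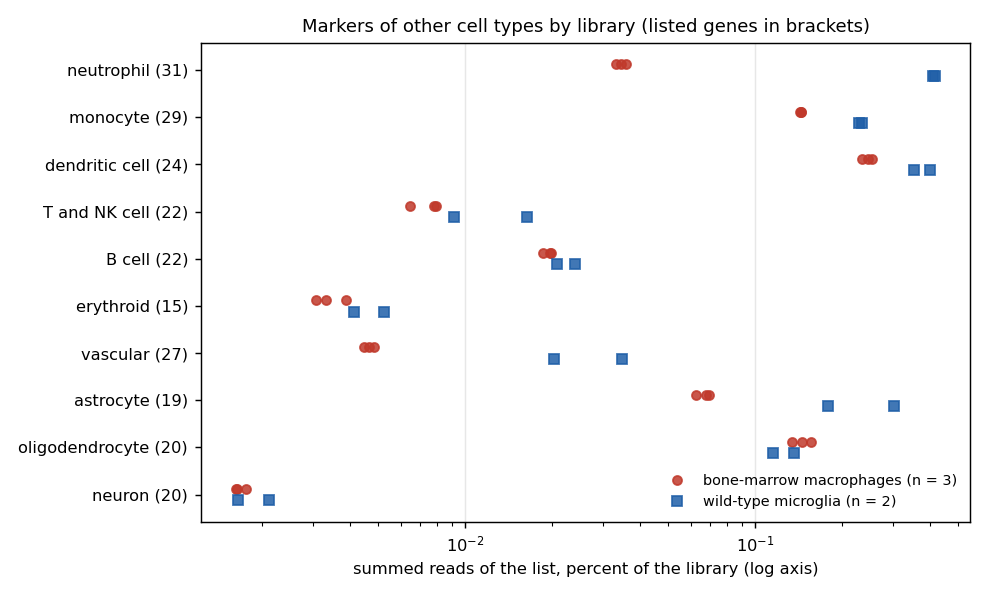
Reads of 10 lists of markers of other cell types, summed, as a percentage of each library on a log axis. Red circles are bone-marrow macrophage libraries and blue squares wild-type libraries. Neutrophil and vascular markers lie furthest apart, with 0.0331 to 0.0360% against 0.411 and 0.419% for neutrophil markers.

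Monocyte markers fell more often than they rose, with 20 of 29 lower, 5 higher (3 with all 8 libraries) and a median of -1.74. Ly6c2, a surface protein of inflammatory monocytes, had 94.3, 80.6 and 67.0 normalised counts in bone-marrow macrophages and 1366 and 857 in microglia, and fell by 3.74 (SE 0.20, adjusted p = 2.8e-08). Reads of Ly6c2 and its close copy Ly6c1 may have been split between them. Chi3l3, a chitinase-like protein now named Chil3, and haptoglobin, encoded by Hp, fell by 3.83 and 3.28. Some of these transcripts are also made by neutrophils, whose markers were higher in the same libraries. Members that rose included Itgal, the alpha chain of the integrin LFA-1, with 3231, 3271 and 3388 against 353 and 296, and the sialomucin Spn with 609, 501 and 582 against 179.5 and 109.8. B cell markers summed to 0.0186 to 0.0198% of reads in bone-marrow macrophages and to 0.0207 and 0.0239% in microglia, and T and NK cell markers to 0.00648 to 0.00792% and to 0.0164 and 0.00914%. Oligodendrocyte markers summed to 0.134 to 0.156% against 0.115 and 0.136%.

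Transcription factors with roles in macrophage identity fell more often than they rose, 28 of 45 against 6, with a median of -0.59, and 3 rose with all 8 libraries or a minimum of 50. Beside Sall1 and Sall3, Ets1 and Smad3, which carries signals of transforming growth factor beta to the nucleus, fell by 2.24 and 1.70. Runx2 and Zeb2 rose, as Runx3 did, with 47.2, 47.7 and 36.2 against 10.7 and 5.08 for Runx2 and 1183, 1307 and 1107 against 429.5 and 673 for Zeb2. In the pathway of transforming growth factor beta 21 of 33 genes fell and 4 rose. Its type I receptor Tgfbr1 had 9008, 11046 and 7912 against 25882 and 27295 and fell by 1.53 (SE 0.14, adjusted p = 2.0e-06). The receptor Bmpr1a for bone morphogenetic proteins had 6.25, 7.42 and 9.70 against 435 and 463. Ltbp3, which tethers latent ligand to the matrix, and the target gene Tgfbi rose by 3.47 and 3.10.

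Receptors through which phagocytes bind their targets were called in both directions. Of 30 tested, 11 rose and 15 fell, 10 and 11 of them at least 2-fold. Of all tested genes 32.7% rose and 30.9% fell, and 15.4% and 13.9% did so at least 2-fold. The counts of integrins and lectins below are to be read against the same shares. Axl and Mertk are related kinases that both bind dying cells through Gas6, and they moved in opposite directions. Mertk had 577, 694 and 604 against 2563 and 2940.4 and fell by 2.14 (SE 0.12, adjusted p = 2.8e-08), while Axl rose as given above. Of the bridging proteins of this receptor family, Pros1 fell by 2.43 (SE 0.10, limma adjusted p = 4.9e-09). Gas6 had 1092, 1331 and 1315 against 1468 and 1597, a small change (-0.30). Its call was lost in 7 of the 21 alternatives. Among them were all 8 libraries (limma adjusted p = 0.12) and leaving out replicate 1 of bone-marrow macrophages (adjusted p = 0.19). The integrin chain Itgb3, part of the vitronectin receptor, had 30.7, 52.0 and 28.2 against 777 and 703. Among all integrin chains 8 of 16 rose, Itga8, Itgal and Itga4 among them, and 6 fell. Of 25 C-type lectins 10 rose and 9 fell, or 15 without a filter on low values.

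Of 11 genes of Fc receptors and their signalling, 6 fell and 1 rose, or 2 without replicate 2 of wild-type microglia. The high-affinity receptor Fcgr1 and the receptors Fcgr3, Fcgr2b and Fcgrt fell by 0.87, 1.19, 1.27 and 1.60. The gene that rose was the phosphatase Ptpn6 (0.52, adjusted p = 0.0017, and 0.14 with all 8 libraries), which acts below inhibitory receptors. Complement genes fell in 10 of 17 cases and rose in 4. C1qa, a chain of the first component, had 30319, 31646 and 38576 against 68146 and 57657 and fell by 0.91 (SE 0.15, adjusted p = 2.1e-04). Cfp, which encodes properdin, the stabiliser of the alternative pathway, had 881, 685 and 1018 against 166 and 183 and rose by 2.28 (SE 0.16, adjusted p = 1.7e-07).

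Sensors of microbial and nucleic acid ligands fell in 24 of 41 cases and rose in 8, or 20 and 6 with all 8 libraries. Of all tested genes 30.9% fell and 32.7% rose. Tlr7 and Tlr8, neighbours on the X chromosome that both sense single-stranded RNA, moved in opposite directions. Tlr7 had 1559.9, 2034 and 1335 against 4668 and 4997 and fell by 1.58 (SE 0.15, adjusted p = 2.7e-06). Tlr8 had 834, 948 and 615 against 53.4 and 46.8 and rose by 3.95 (SE 0.17, adjusted p = 7.4e-09). Tlr3, a sensor of double-stranded RNA, had 295, 355 and 298 against 1338 and 1334, and Tlr5, the receptor of flagellin, 19.9, 18.0 and 21.2 against 227 and 203. Nlrc4, an inflammasome protein, was at 102, 119 and 122 against 4.27 and 6.10. Tmem173, which encodes STING, fell by 1.66. Tlr2 rose by 0.51, which was not called with all 8 libraries (adjusted p = 0.21).

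In the interleukin-1 family, named in the series title, 17 of 37 genes fell and 7 rose, with a median of -0.25, or -0.11 with equal totals. The ligand Il1a had 269, 474 and 449.7 normalised counts in bone-marrow macrophages and 882 and 847 in microglia, and fell by 1.16 (SE 0.20, adjusted p = 3.1e-04). The ligand Il1b had 139, 253 and 316 against 435 and 352, a log2 fold change of -0.81 (SE 0.26, adjusted p = 0.019), which was not called in 5 of the 21 alternatives, among them leaving out replicate 1 of wild-type microglia (adjusted p = 0.12), DESeq2 (0.14) and all 8 libraries (0.21). Il1rn, the natural antagonist of the receptor, had 70.5, 87.0 and 72.3 against 323 and 181 and fell by 1.65 (SE 0.23, adjusted p = 5.6e-05). The signalling receptor Il1r1 was low in both, with 11.9, 6.36 and 13.2 against 18.2 and 9.15, and was not called (log2 fold change -0.33, SE 0.45, adjusted p = 0.54). Below the receptors, the adaptor Myd88 and the kinase Irak2 fell by 0.80 and 0.82, and the kinase Irak1 rose by 0.88. Il18 and Il1rl1, the receptor of interleukin-33, fell by 1.29 and 1.81.

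Among CC chemokines and their receptors 11 of 19 fell and 3 rose, or 5 rose without replicate 1 or replicate 3 of bone-marrow macrophages. Ccr1 had 3802, 4336 and 3428 against 1048 and 721 and rose by 2.14. The ligands Ccl6 and Ccl9 fell by 2.38 and 2.36. The monocyte attractant Ccl2 rose by 0.92 (SE 0.16, adjusted p = 3.7e-04), a call lost with all 8 libraries (adjusted p = 0.22). CXC chemokines had their largest changes at both ends. Beside Cxcl14 and Pf4, Ppbp, a platelet chemokine whose gene lies near Pf4, had 17.6, 19.1 and 12.3 in bone-marrow macrophages and no read in microglia (at least 10.51-fold higher). The B cell attractant Cxcl13 had 2.27, 0 and 0 against 149 and 111, and Cxcl16, a scavenger receptor and chemokine in 1 protein, had 3084, 3306 and 3419 against 869.8 and 787. Among other cytokine receptors, Csf2ra for granulocyte-macrophage colony-stimulating factor and Ifnar1 for type I interferon rose by 2.47 and 2.05, while Ifngr1 for interferon gamma and Il6st, the shared chain of interleukin-6 receptors, fell by 1.55 and 2.18.

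Antigen presentation and interferon genes showed no common direction. Of 19 class II genes 5 rose, or 3 with all 8 libraries, and 8 fell. The class II activator Ciita had 90.4, 76.4 and 103 against 34.2 and 23.4 and rose by 1.62, and the invariant chain Cd74 had 16921, 12305 and 15669 against 9642 and 8923, a change of 0.68 not called with all 8 libraries (adjusted p = 0.071). H2-Oa and H2-Ob, which restrain peptide loading, fell by 2.60 and 2.33, and the costimulators Cd86 and Cd80 fell by 1.37 and 2.04. In class I, 5 of 21 rose and 3 fell, with 3 that rose when replicate 1 or 3 of bone-marrow macrophages or replicate 2 of wild-type microglia was left out, and with all 8 libraries 3 rose and 1 fell. Of 58 type I interferon response genes 18 rose and 19 fell, near the 32.7% and 30.9% of all tested genes. The median of -0.08 had no stable sign, with -0.15 to 0.08 over the alternatives run. With all 8 libraries 10 rose and 11 fell. The antiviral membrane tether Bst2 had 3495, 3846 and 4458 against 1497 and 1046 and rose by 1.64, and the RNA-activated kinase Eif2ak2 by 2.08, while the chemokine Cxcl10 and the GTPase Gbp2 fell by 1.31 and 1.70.

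Lysosomal genes were called in both directions, with 19 of 59 higher and 23 lower, or 14 and 15 with all 8 libraries. Of all tested genes 32.7% were called higher and 30.9% lower, so this spread is not particular to the list. Cystatin C, a secreted inhibitor of cathepsins encoded by Cst3, had 33257, 31444 and 32479 against 220908 and 218625 and fell by 2.76 (SE 0.13, adjusted p = 1.3e-08). The cathepsin genes Ctsl, Ctso and Ctsf fell by 2.70, 2.12 and 1.80. The cathepsin genes Ctsk and Ctse stood among the most raised of all genes, as given above, and Ctsc rose by 1.07. The proton pump subunit Atp6v0d2, which osteoclasts use, had 40.3, 97.6 and 78.5 against 3.21 and 5.08.

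Ferritin genes rose and the gene of an iron exporter fell. The ferritin chains Fth1 and Ftl1, which store iron, rose by 1.22 and 1.48, with 35869, 36020.1 and 42015 against 14156 and 12973 for Ftl1. Ferroportin, the only known cellular iron exporter, encoded by Slc40a1, had 189, 303 and 225 against 2621 and 2200.2 and fell by 3.35 (SE 0.17, adjusted p = 2.0e-08). Biliverdin reductase B, encoded by Blvrb and acting in haem breakdown, rose by 1.74. In all 12 of 27 iron and haem genes rose and 8 fell, beside 32.7% and 30.9% of all tested genes.

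Receptors and channels that shape how these cells sense their surroundings changed in both directions. Among purinergic genes 12 of 21 fell and 8 rose. The adenosine receptor Adora3 had 33.5, 36.1 and 37.0 against 2156 and 2059.9, and fell by 5.85 (SE 0.14, adjusted p = 5.5e-11). The enzymes that turn extracellular ATP into adenosine parted: Entpd1, which removes the outer phosphates, fell by 1.82, and Nt5e, which removes the last, had 119, 92.3 and 108 against 6.41 and 7.12 and rose by 3.78. Among ion channels, the potassium channels Kcnn4 and Kcna3 had 1121, 1026 and 1291 and 119, 80.6 and 84.7 in bone-marrow macrophages, against 62.0 and 52.9 and 7.48 and 5.08 in microglia. The potassium channels Kcnk12 and Kcnma1 fell by 5.34 and 4.40, and Kcnk13, a channel that drives microglial surveillance and is often called THIK-1, fell by 1.17 (SE 0.11, adjusted p = 3.2e-06). Among Gpr and related receptors 23 of 40 fell. The proton sensor Gpr65 had 2299, 2398 and 1953 against 158 and 138, and Gpr34, a lysophosphatidylserine receptor, 2901, 3982 and 2339 against 36238 and 32113.

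Guidance receptors of the plexin family were among the genes that rose. Plxna1 had 367, 374 and 401 against 11.8 and 25.4, and Plxnc1 425, 507 and 479 against 35.3 and 34.6. Plxnd1 and the coreceptor Nrp1 rose by 2.78 and 1.34. Of all tested genes 32.7% rose and 30.9% fell. Near those shares, 8 of 22 genes on the whole guidance list rose and 8 fell, or 4 with a minimum of 50 and 14 without a filter. Among those that fell, Sema4g and Neo1 fell by 4.56 and 3.97. Of the growth factors, Hgf and Pdgfc rose by 2.08 and 2.67, and Tgfa, a ligand of the epidermal growth factor receptor, had 20.5, 24.4 and 8.82 against 1235 and 1154.

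Repopulating microglia, which were not in the test, give the levels of the same genes in the remaining population of the study, with the strain label DTRmg of the bone-marrow macrophages. For all 15 most lowered genes, each of the 3 repopulating libraries stood above every bone-marrow macrophage library. Sall1 had 2594, 1864 and 6101 in them and P2ry12 36757, 27059 and 34119.8. For 10 of the 15 they lay between the populations. For 14 of the 15 most raised genes each repopulating library stood below every bone-marrow macrophage library, and Ctsk was the exception, with 1928, 4203 and 70.3. Top2a stood at 78.4, 84.1 and 77.2 in repopulating microglia, Apoe at 10948, 17153 and 16903, Axl at 16961, 13851 and 5689 and Cx3cr1 at 22578, 19166 and 23758. Levels of Top2a were thus near those of wild-type microglia and levels of Cx3cr1 near those of bone-marrow macrophages, with Apoe between.

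**Figure D5:**
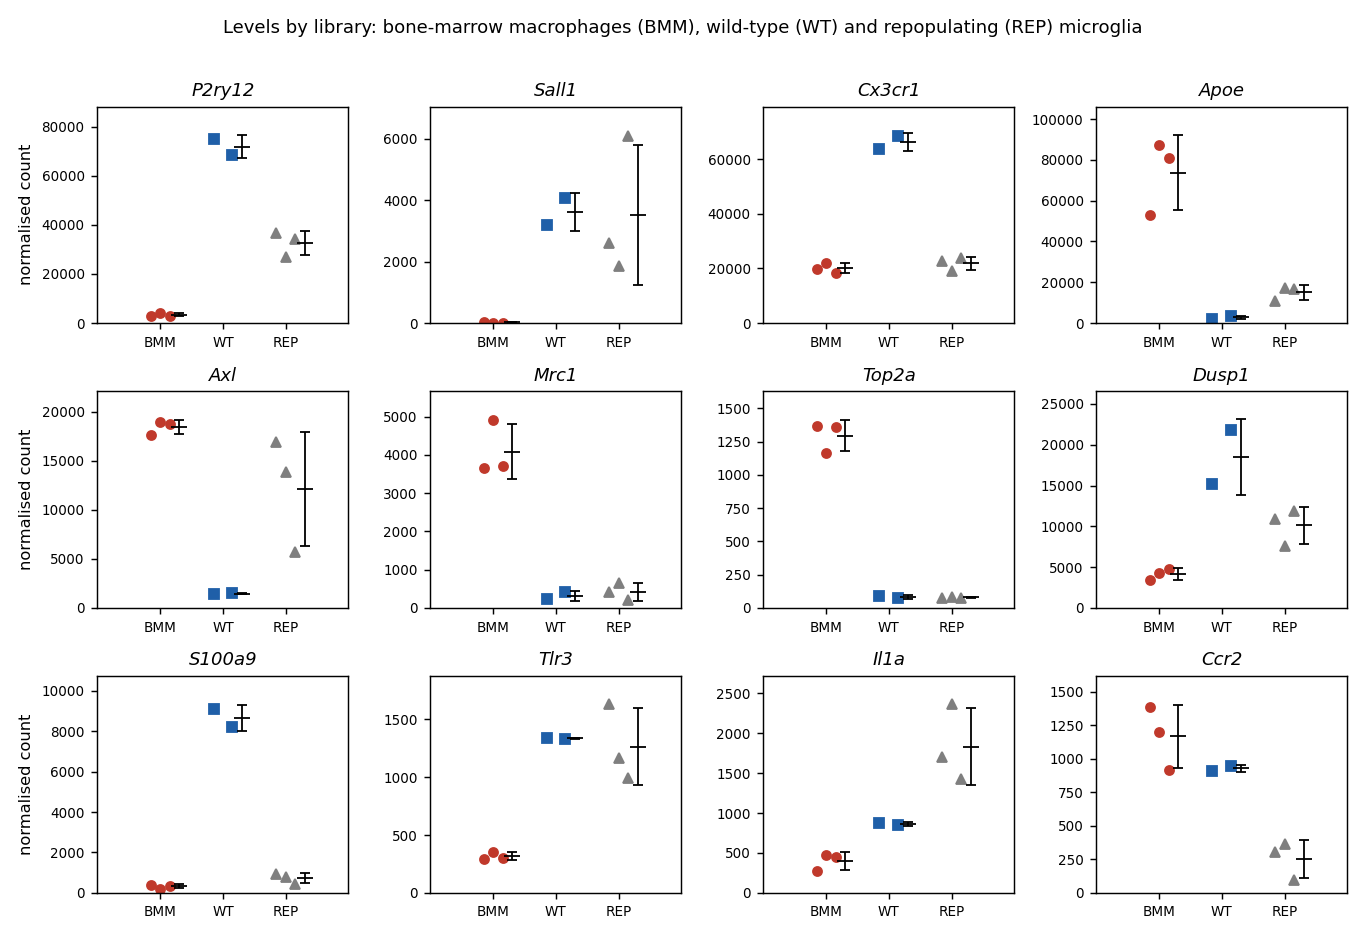
Normalised counts of 12 genes in each library of bone-marrow macrophages (BMM, red), wild-type microglia (WT, blue) and repopulating microglia (REP, grey), with mean and SD as bars beside the points (n = 3, 2 and 3). Axes start at 0. Ccr2 is the gene whose bone-marrow macrophage and wild-type libraries overlap.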

How the data were processed

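RNA was measured with the TruSeq kit, version 2, which does not mark strand, per the labels' protocols, so reads of antisense or overlapping genes may be mixed. Copies that are nearly identical (Ly6c, Schlafen and histocompatibility genes) are uncertain. The submitters' processing notes list build mm10, with TopHat2 2.0.10 and Bowtie2 2.1.0.0 as well as HTSeq and, of DESeq, version 1.14.0. What each tool did is not stated there. The unit of the deposited table is signal. Its values show that the authors divided gene counts by 1 factor per library: in each, 100% of values above 0 were whole multiples of that of 1 read, within a tolerance of 0.01 reads, which gave back the whole reads.

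Columns named mono were taken as the bone-marrow macrophages, since the other columns match the remaining labels. The 5 libraries were fitted alone, without covariates, in limma 3.58.1 (R 4.3.3, variances following a trend on level). The fit took log2(normalised count + 1), for 11190 genes that reached 10 in 2 or more libraries and held at least 99.86% of reads. Calls needed an adjusted p (Benjamini-Hochberg) below 0.05. Members and gene lists were chosen with earlier results of these data known. Genes named were the 15 highest and 15 lowest by log2 fold change among called genes without overlap and with a mean of at least 100 in the higher group (predicted models, clones, small RNAs and receptor segments left out), 22 fixed genes, and up to 5 members per list and direction by smallest adjusted p. Not all of them are described, and a few are not reported here. Folds against no reads use a floor of 3 reads over the group, and with 1 to 3 reads a 95% interval is given; both cover counting error only. On simulated data, 100 genes were changed at each size. In a fit of 11003 genes, 100% of 4-fold and 94% of 2-fold changes were recovered, and 7.18% of calls were false. The simulation changed far fewer genes than were called in the data, and none of low mean, so these rates need not hold for the data. Alternatives were other pseudocounts, filters and scalings, a fit over all 8 libraries, a replicate block, other variance models, leaving out each library, and count tests on the recovered reads with edgeR 4.0.16 (quasi-likelihood) and DESeq2 1.42.0. Removing trends with transcript length and GC content was added after the data had been seen. Gene coordinates are 1-based, from GENCODE vM21 on GRCm38, the assembly also called mm10. Figures were drawn with matplotlib 3.10.9.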

Additional observations from a re-analysis of the deposited data

How the results depend on the processing

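Calls numbered 7118 with limma, 7115 with edgeR on recovered reads and 6465 with DESeq2. The 3 tools shared 6448 of them. Leaving out 1 library gave 6224 to 6615 calls in all, 3192 to 3466 higher and 3032 to 3223 lower. With all 8 libraries sharing 1 estimate of the spread, 2435 genes were called higher in place of 3655, and all 4944 genes called there were also called with 5 libraries. The median log2 fold change of all tested genes, 0.0043, moved to -0.0698 without a filter on low values, 0.0323 with a minimum of 50, 0.1457 with equal totals, -0.0099 with TMM scaling, -0.0253 with quantile normalisation, -0.011 with edgeR and -0.0137 with DESeq2. Of the 388 named genes 385 were called, and 336 of these calls held in every one of the 21 alternatives that tested the gene. Most calls were lost with all 8 libraries (41) and without replicate 2 of wild-type microglia (15), and no called gene reversed its direction. Removing trends with transcript length and GC content, chosen after seeing the data, gave 7410 calls. Across genes, log2 fold change had a Pearson r of 0.088 with log2 transcript length and of 0.013 with GC content, and genes are not independent replicates.

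With the replicate number as a block, 6544 genes were called. Deviations from the group means correlated at 0.051 and -0.0286 between libraries of the same number. With 2 wild-type libraries, their deviations mirror each other, so these values cannot show whether libraries of the same number were paired. Only 2 wild-type libraries limit every estimate of the spread, and genes with few reads have folds pulled toward 0 by the added count.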

Other observations

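Families outside the comparisons above held genes with large changes. Of 7 tested Schlafen genes, a family of growth and antiviral regulators whose near-identical copies make read assignment uncertain, 3 rose and 2 fell, or 1 with all 8 libraries. Slfn9 had 75.6, 80.6 and 89.9 normalised counts in bone-marrow macrophages and 6.41 and 2.03 in microglia, and Slfn5 711, 845 and 810.4 against 168 and 201. Slfn1 went the other way with 82.4, 72.1 and 81.1 against 296 and 224. Of 27 restriction factors 12 rose, or 6 with all 8 libraries, and 10 fell. The RNA-editing deaminase Apobec1 had 2115, 2248 and 1966 against 379 and 320.3, and rose by 2.59 (SE 0.11, limma adjusted p = 6.5e-09). Its relative Apobec2 had 1 read in the bone-marrow macrophage libraries together and 64 in the wild-type ones, a ratio of 127.9 with a 95% counting interval of 22.15 to 5131.

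Proteases that act outside the cell also parted. The membrane metalloproteinase Mmp14 had 2032, 2228 and 2261 against 337 and 424 and the shedding protease Adam19 266, 325 and 268 against 20.3 and 36.6, rising by 2.52 and 3.34. The neutrophil collagenase Mmp8 had 35.8, 23.3 and 36.2 against 564 and 724, and Reck, a membrane inhibitor of metalloproteinases, 4.55, 3.18 and 7.05 against 31.0 and 26.4. Galectin 1, encoded by Lgals1, had 3522, 3195 and 4107 against 355 and 347, and the phosphatidylserine-binding annexin Anxa5 3369.9, 3400.2 and 3334 against 706 and 560.2. Sparc, a secreted protein that binds collagen, had 1385, 1479 and 1587 against 44317 and 46112 and fell by 4.93 (SE 0.10, limma adjusted p = 1.8e-11). Fscn1, an actin-bundling protein used to mark mature dendritic cells, had 65.9, 78.5 and 82.0 against 4238 and 5684.

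Some tested genes had no read in 1 population. There were 10 with no read in wild-type microglia and 5 with none in bone-marrow macrophages. Nlrc3, a negative regulator of innate signalling, had 25.0, 25.5 and 25.6 in bone-marrow macrophages and no read in microglia, at least 16.18-fold higher. Trim55 and Dppa3 were at least 23.85-fold and 17.18-fold higher. Rnase10 was at least 54.64-fold lower, with 32.1 and 52.9 in microglia. These 4 genes were chosen after their values were seen.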
